A study of Mus musculus with 2 samples.

Results

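Fibroblasts of the mouse heart that carried Pi16, Cd248, Ackr3 and Tmem100 made up 801 of the 10667 deposited cells, 349 of 4867 in the library from hearts of AC8-overexpressing mice and 452 of 5800 in the library from wild-type (WT) hearts. A cell was a member when it had at least 1000 UMIs (unique molecular identifiers, each standing for 1 captured transcript), at least 500 genes and at most 10% mitochondrial UMIs, at least 5 UMIs of Dcn, Col1a1 and Col3a1 together, no UMI of Pecam1 or Ptprc, and a higher score for these 4 genes than for each of 3 other fibroblast sets. The scores were the summed UMIs of 4 genes, divided by the cell's total and by the set's mean over all gated fibroblasts. The other sets were Cxcl14, Smoc2, Dpep1 and Hsd11b1 (the Cxcl14 set), Ccl19, Srpx, Mmp3 and Osr1 (the Ccl19 set), and Cilp, Mfap4, Comp and Meox1 (the Cilp set). In all, 1521 AC8 cells and 1902 WT cells passed the gate.

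The AC8 group was AC8-overexpressing C57/B6 mice, in which adenylyl cyclase type 8, an enzyme that makes cyclic AMP, is overexpressed specifically in cardiomyocytes, per the series title. The WT group was littermate C57/B6 mice, and neither group was treated. Heart cells of each genotype were pooled, sorted by CD45 and CD31 into 3 fractions of equal cell number (leukocytes, endothelial cells and cells negative for both markers), mixed and run as 1 droplet library per genotype. Cardiomyocytes, the cells that carry the transgene, were not sorted as a fraction of their own. The age and number of the mice are not given in the sources used here. With 1 library per genotype no difference between AC8 and WT cells has a replicate check, no test between genotypes was possible, and every interval below is a 95% interval of counting error only.

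In many mouse organs, fibroblasts with Pi16 and Dpp4 lie in the adventitia, the outer coat of larger vessels, and along connective tissue boundaries, and they are described as a reservoir from which more specialised fibroblasts can arise. They are known for genes of hyaluronan precursor synthesis, for microfibril proteins such as fibrillin-1 and for surface antigens such as Ly6a (Sca-1) and Cd55. Activated fibroblasts, by contrast, are known for periostin and contractile proteins, and fibroblasts of many organs also respond to interferon and to NF-kB, the transcription factor family that includes RelA.

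Members held 1132238 UMIs in the AC8 library, with a median of 3149 UMIs and 1534 genes per cell, and 1202808 UMIs in the WT library, with a median of 2519 UMIs and 1320.5 genes. The whole libraries held 11076564 UMIs (AC8) and 9664932 UMIs (WT). Members made up 22.9% (20.9 to 25.1%) of the gated AC8 fibroblasts and 23.8% (21.9 to 25.7%) of the gated WT fibroblasts. The genotypes' shares were not compared, since the sets are relative to each other and hold genes that themselves differed between the libraries: Smoc2 stood at 444 CPM in AC8 and 1069 CPM in WT cells of the other 3 sets (CPM, the gene's share of all UMIs of the summed cells times 1000000). Cells in the deposited files carry running numbers in place of barcode letters, so shared barcodes could not be counted. No cell had the same counts as a cell of the other library. Adcy8, the overexpressed gene, was at 0 UMIs in AC8 and WT members; a count of 0 leaves room for 2.65 CPM in AC8 and 2.49 CPM in WT members.

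The 4 genes of the rule are described here with no test, since they chose the cells. Pi16, a secreted protein of the CRISP family (GRCm38 chromosome 17, 29317680 to 29330593), stood at 5897 CPM in AC8 and 6177 CPM in WT members and held 71.6% and 72.8% of the members' set UMIs in the AC8 and WT library. Cd248, or endosialin, a transmembrane glycoprotein of stromal cells (chromosome 19, 5068078 to 5070682), stood at 871 CPM in AC8 and 907 CPM in WT members. Ackr3, a receptor that removes the chemokine CXCL12 (chromosome 1, 90203980 to 90216751), stood at 1052 CPM in AC8 and 1072 CPM in WT members. Tmem100, a membrane protein known in mouse endothelium as a target of BMP9 and BMP10 signalling (chromosome 11, 90030348 to 90036508), stood at 420 CPM in AC8 and 332 CPM in WT members. Pi16 was also the gene with the widest reach: 97.1% of AC8 and 96.7% of WT members had a UMI of it, against 52.7% of AC8 and 41.2% of WT members for Tmem100. All 4 genes had a UMI in 131 AC8 and 124 WT members, and 21 AC8 and 49 WT members rested on 1 gene.

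With every cell thinned to 1000 UMIs, Pi16 had a UMI in 91.7% of AC8 and 91.6% of WT members. The next highest share was in the Cilp set, with 72.5% in AC8 and 69.2% in WT cells, and the Cxcl14 set followed with 43.4% in AC8 and 44.9% in WT cells. Macrophages, which should lack the gene, had a Pi16 UMI in 1.54% of AC8 and 2.25% of WT cells (3.28% and 3.37% before thinning, at medians of 3208.5 UMIs in AC8 and 2093 UMIs in WT), and endothelial cells in 15.7% of AC8 and 4.71% of WT cells. Pi16 was thus graded across the fibroblast sets. Thinned shares for Cd248 were 51.3% in AC8 and 48.7% in WT members, against 16.9% and 21.5% in AC8 and WT cells of the Cilp set. At the boundary, 16 AC8 and 36 WT members had a set score no more than 1.1 times that of their next set, and 33 AC8 and 32 WT cells lay as close on the other side. The lowest member's score was 1.01 times the next in both libraries, and the highest cell outside stood at 0.986 (AC8) and 0.998 (WT).

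Genes that the rule did not use were compared between members and the summed cells of the other 3 sets, library by library. Over all measured genes, 132 of 10643 (1.24%) were at least 1.5-fold higher in members in both libraries, and 152 (1.43%) were at least 1.5-fold lower in both. Ratios are log2((CPM + 10)/(CPM + 10)), which understates the change of low genes; plain folds come with an exact interval. A list of 28 genes known from adventitial and universal fibroblasts had 27 measured members, of which 22 were at least 1.5-fold higher in both libraries and 0 were lower. The median log2 ratio of the list was 1.04 in AC8 and 1.07 in WT. These cells were chosen by expression, so the counts describe them and test nothing. By these genes the cells had the adventitial-type profile that their label describes. The list was chosen with earlier results of these data known, so it gives the label no independent support.

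Efhd1, a calcium-binding protein of mitochondria, stood at 117 CPM in AC8 and 138 CPM in WT members, against 16.2 CPM and 25.7 CPM in AC8 and WT cells of the other sets, which is 7.21-fold (5.20 to 10.1) in AC8 and 5.37-fold (4.10 to 7.09) in WT. Ugdh, which makes the glucuronic acid precursor of hyaluronan, was 3.65-fold (3.23 to 4.13) higher in AC8 members and 3.52-fold (3.15 to 3.93) higher in WT members. Gfpt2 and Uap1, enzymes of the path to UDP-N-acetylglucosamine, the other sugar precursor of hyaluronan, were 3.83-fold and 3.61-fold higher in AC8 members and 2.86-fold and 2.73-fold higher in WT members. Has1, a hyaluronan synthase, was 2.05-fold (1.56 to 2.68) higher in AC8 members and 2.12-fold (1.69 to 2.65) higher in WT members. The surface antigen Dpp4 was sparse: it had UMIs in 34 AC8 and 38 WT members and stood at 38.9 CPM in AC8 and 49.1 CPM in WT members, against 4.27 and 3.76 CPM in AC8 and WT cells of the other sets. Cd55, which protects cells from complement, was 2.99-fold (2.61 to 3.41) higher in AC8 and 3.10-fold (2.77 to 3.47) higher in WT members, and Thy1, a surface glycoprotein of many mesenchymal cells, was 3.53-fold (2.63 to 4.75) higher in AC8 and 4.62-fold (3.49 to 6.15) higher in WT members. Among the other named genes, Lrrn4cl, Adgrd1, Adamtsl3, Hspb8 and Emilin2 were between 3.18-fold and 5.21-fold higher in both libraries.

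Within the elastic fibre and microfibril list the members were split. Of 19 measured genes, 6 were at least 1.5-fold higher in both libraries and 3 were lower. Fbn1, which encodes the microfibril protein fibrillin-1, stood at 634 CPM in AC8 and 1087 CPM in WT members, against 329 and 511 CPM in AC8 and WT cells of the other sets. Mfap5, another microfibril protein, was 2.10-fold (1.996 to 2.20) higher in AC8 and 2.39-fold (2.27 to 2.52) higher in WT members. Fbln2, Efemp1, Emilin2 and Loxl2 completed the higher group, whereas Eln, which encodes elastin itself, stood at 235 CPM in AC8 and 328 CPM in WT members, against 539 and 584 CPM in AC8 and WT cells of the other sets. Lox, the enzyme that cross-links elastin and collagen, was also lower, at 19.4 CPM in AC8 and 19.95 CPM in WT members, against 40.3 and 58.9 CPM in AC8 and WT cells of the other sets.

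The genes lowest in members included secreted carriers and growth factor genes. Apoe, a lipid carrier, stood at 1056 CPM in AC8 and 898 CPM in WT members, against 3892 and 3576 CPM in AC8 and WT cells of the other sets. Mgp, which inhibits calcification, stood at 2100 CPM in AC8 and 2226 CPM in WT members, against 6095 and 5770 CPM in the AC8 and WT cells of the other sets. Igfbp3, a carrier of insulin-like growth factors, stood at 14.1 CPM in AC8 and 9.98 CPM in WT members, against 137 and 185 CPM in AC8 and WT cells of the other sets, where the Ccl19 set held most of it. Pdlim3, Ahsg, Cytl1, Fmo2 and Fgl2 were between 0.17 and 0.38 times the level of the other sets in both libraries. Of 21 measured growth factor and IGF-binding protein genes, 2 (Igfbp6 and Fgf18) were at least 1.5-fold higher in both libraries and 6 were lower, Igf1 among them.

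**Figure D1:**
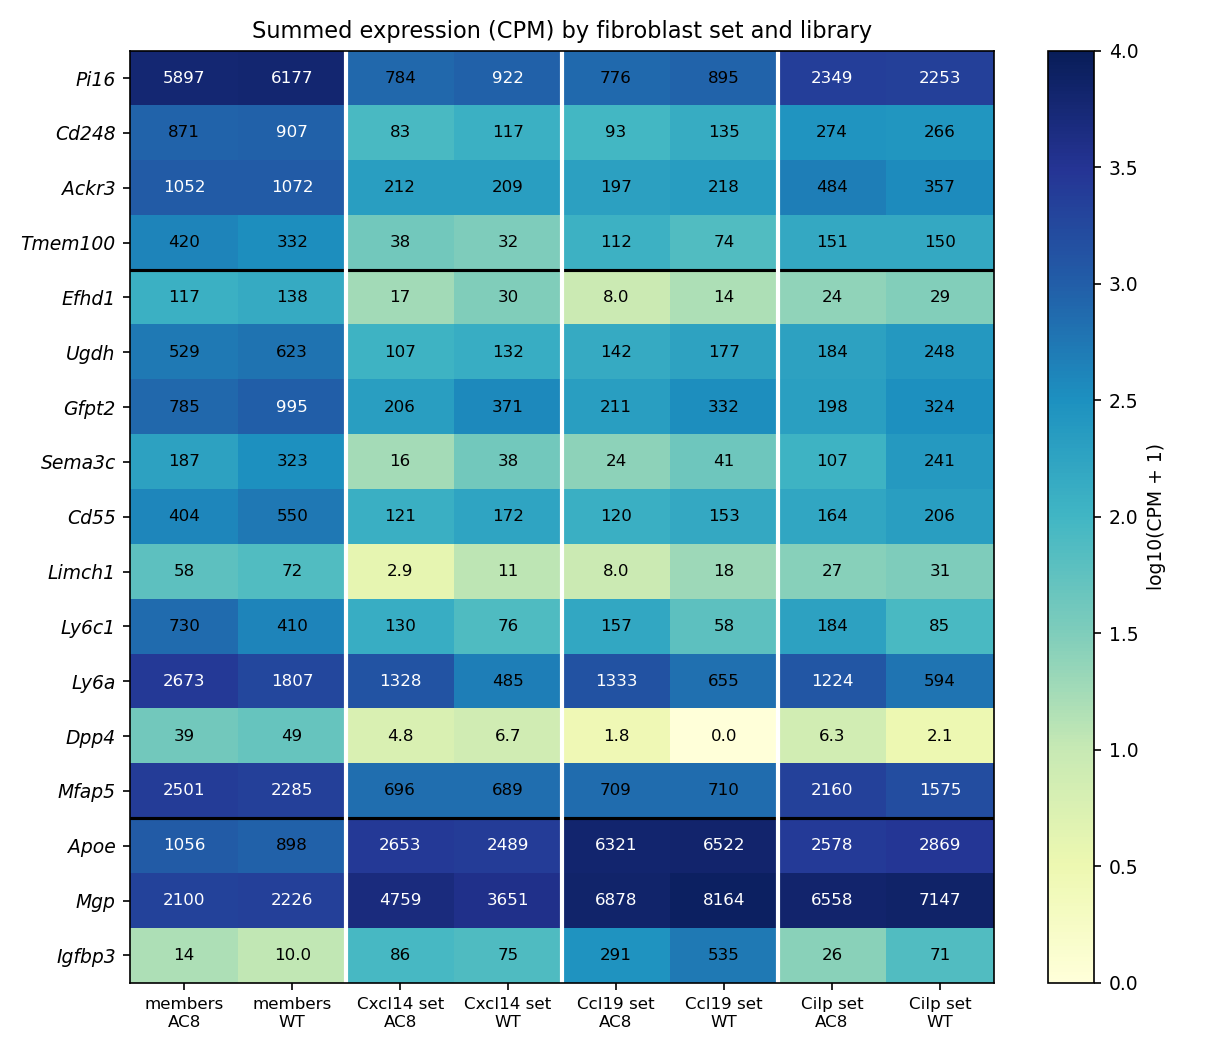
Heat map of CPM in cells summed by fibroblast set and library, with the 4 genes of the rule on top, 10 genes outside the rule that were higher in members in the middle and 3 lower ones at the bottom; colour is log10(CPM + 1) and each cell gives the CPM. Efhd1, Ugdh, Gfpt2, Cd55 and Ly6c1 were highest in members within each library, while Sema3c and Mfap5 were next highest in the Cilp set, where Mfap5 had 2160 CPM (AC8) and 1575 CPM (WT).

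Members were not uniform, and the genes of the list followed the member score inside the group. Members were divided at the pooled tertiles of their set score into 108, 118 and 123 AC8 cells and 159, 150 and 143 WT cells with the lowest, middle and highest scores. Of the 28 genes of the adventitial list, 24 averaged 50 CPM or more over members, and each of these was higher in the highest-scoring than in the lowest-scoring members of both libraries, 21 of them by at least 1.5-fold in AC8 and 19 in WT, with median log2 ratios of 1.04 in AC8 and 0.96 in WT. Of all 3230 genes outside the rule at that level, 1553 (48.1%) were higher in the highest-scoring AC8 members and 1520 (47.1%) in the highest-scoring WT members, with 223 (6.9%) in AC8 and 192 (5.94%) in WT at least 1.5-fold higher. Ugdh stood at 818 CPM in the highest-scoring and 384 CPM in the lowest-scoring AC8 members, and at 966 CPM in the highest-scoring and 420 CPM in the lowest-scoring WT members. Cd55 stood at 591 CPM in the highest-scoring and 196 CPM in the lowest-scoring AC8 members, and at 868 CPM in the highest-scoring and 375 CPM in the lowest-scoring WT members. Every gene of these cells counts as used by a rule on the same cells, so this gradient is a description.

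**Figure D2:**
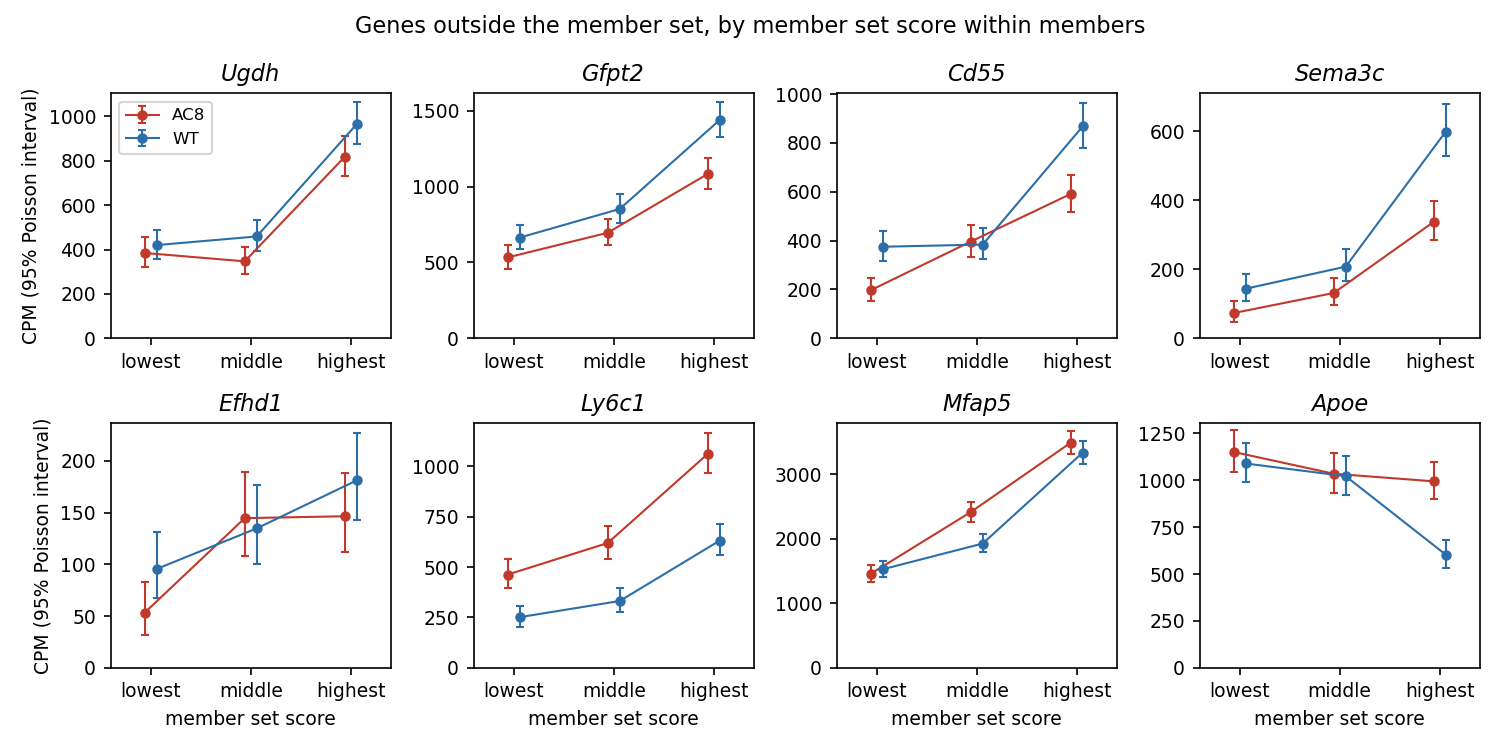
CPM of 8 genes outside the rule (y axes, with 95% Poisson intervals) in members of lowest, middle and highest set score (x axes), AC8 in red and WT in blue. Sema3c, Cd55, Ugdh and Gfpt2 were highest in the highest-scoring members of both libraries, and Apoe ran the other way in WT members, with 603 CPM in the highest-scoring and 1089 CPM in the lowest-scoring.

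The set that came next in score divided the members further. It was the Cxcl14 set in 150 AC8 and 226 WT members, the Cilp set in 97 AC8 and 121 WT members, and the Ccl19 set in 75 AC8 and 60 WT members, while 27 AC8 and 45 WT members had no UMI of another set. Postn, which encodes periostin, a matrix protein of activated fibroblasts, stood at 433 CPM in AC8 and 497 CPM in WT members next to the Cilp set. It stood at 184 CPM in AC8 and 70.1 CPM in WT members next to the Cxcl14 set, and at 33.2 CPM in AC8 and 95.4 CPM in WT members next to the Ccl19 set. The Cilp-leaning members of both libraries were thus the ones with most Postn. In both libraries the gene with the most cell-to-cell variance beyond counting noise, of 2859 genes at 50 CPM or more, was Gsn, which encodes the actin-severing protein gelsolin, followed by the metallothionein gene Mt1. Gsn had UMIs in 349 of 349 AC8 and 451 of 452 WT members, so its spread was one of level.

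The listed markers of other cell types made up little of the members' RNA. The gate had left out 135 AC8 and 179 WT cells with a UMI of Pecam1 or Ptprc. Low endothelial and leukocyte levels were thus partly set by the rule. Macrophage markers summed to 205 CPM in AC8 and 219 CPM in WT members, endothelial markers to 206 CPM in AC8 and 292 CPM in WT members, and mural cell markers to 163 CPM in AC8 and 194 CPM in WT members. Schwann cell markers summed to 16.8 CPM in AC8 and 45.7 CPM in WT members, lymphocyte markers to 6.18 CPM in AC8 and 14.1 CPM in WT members, and cardiomyocyte markers to 24.7 CPM in AC8 and 27.4 CPM in WT members. Mesothelial markers were at 0 UMIs in AC8 members and at 39 UMIs in WT members, all in 1 cell. At 0 were 8 of 10 lymphocyte markers in AC8 and 5 in WT members, the T cell genes Cd3d, Cd3g and Trbc2 in both, 1 of 12 macrophage markers (Fcgr1) in AC8 and 0 in WT, 1 of 9 mural markers (Higd1b) in AC8 and 0 in WT, and 0 of 10 endothelial markers in either. Members with at least 2 UMIs of any of these 7 lists numbered 74 in AC8 and 87 in WT.

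Between genotypes, AC8 members had higher levels of Timp1, Serpina3n and several interferon-response genes and lower levels of Thbs1, Irf1, Cxcl1 and Ptgs2, while most adventitial genes stayed within 1.5-fold. Of 7789 measured genes (at least 30 UMIs over both libraries), 239 (3.07%) were at least 1.5-fold higher and 586 (7.52%) at least 1.5-fold lower in AC8 members than in WT members, and the median log2 ratio of all measured genes was -0.05. Centring the ratios on that median gave 338 higher and 419 lower. Of the 26 measured genes of the adventitial list, 2 were at least 1.5-fold higher (Ly6c1 and Uchl1) and 2 lower (Sema3c and Fbn1), with a median log2 ratio of -0.23. With ratios centred by gene length, described below, 1 of them was higher and 1 lower. Uchl1, a deubiquitinating enzyme, stood at 71.5 CPM in AC8 and 44.1 CPM in WT members. Sema3c, a secreted guidance protein, stood at 187 CPM in AC8 and 323 CPM in WT members. Ly6c1, a surface antigen close to Ly6a, stood at 730 CPM in AC8 and 410 CPM in WT members. Endothelial cells carry Ly6c1 as well, with a UMI in 92.7% of AC8 and 92.1% of WT cells thinned to 1000 UMIs, while the summed endothelial markers in members were lower in AC8 than in WT. The part of endothelial RNA in the Ly6c1 difference was not tested.

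Exonic gene length moved with the ratio between the libraries. From the shortest to the longest quartile of measured genes the median log2 ratio, AC8 over WT, was 0.17, 0.00, -0.12 and -0.27 in members and 0.16, 0.00, -0.13 and -0.27 in the other 3 sets. In the longest quartile, of genes with 7299 or more exonic bases, 12 were at least 1.5-fold higher and 289 lower, and in the shortest 123 were higher and 49 lower. Centring the ratios within quartiles gave 273 higher and 293 lower genes. The part of length in the results below was not tested, and where the counts of a list moved with this centring both are given beside the list. Each list's counts stand against 3.07% higher and 7.52% lower over all measured genes.

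The named genes with the highest ratios were led by Timp1 and by interferon-response genes. Timp1, an inhibitor of matrix metalloproteinases, stood at 402 CPM in AC8 and 98.9 CPM in WT members, which is 4.06-fold (3.31 to 5.01), with UMIs in 114 AC8 and 83 WT cells. A single AC8 cell held 107 of the 455 AC8 UMIs; without the 5 members with most Timp1 in each library the levels were 183 CPM in AC8 and 84.0 CPM in WT. Ifi27l2a, an interferon-induced gene, stood at 4675 CPM in AC8 and 2164 CPM in WT members, 2.16-fold (2.06 to 2.26), with UMIs in 330 of 349 AC8 and 374 of 452 WT cells. Serpina3n, an acute-phase protease inhibitor, stood at 202 CPM in AC8 and 91.5 CPM in WT members, 2.21-fold (1.75 to 2.80). Isg15, a ubiquitin-like interferon-induced protein, stood at 124 CPM in AC8 and 54.0 CPM in WT members, 2.29-fold (1.69 to 3.12). Lgals3bp, a secreted glycoprotein that interferon also induces, stood at 132 CPM in AC8 and 59.9 CPM in WT members, 2.21-fold (1.66 to 2.97). Lmo4, Nmt1, Nucb2, Cd151, Slc25a4 and Slc35b1 followed, with log2 ratios of 0.98, 0.92, 0.82, 0.82, 0.79 and 0.78. H2az1, a histone variant gene, also met the rule for naming with 340 CPM in AC8 and 174 CPM in WT members, but 162 of its 385 AC8 UMIs lay in 1 cell. Without the 5 top cells its levels were 184 CPM in AC8 and 160 CPM in WT, and without scored doublets its log2 ratio was 0.18.

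The named genes with the lowest ratios held early-response, NF-kB-regulated and matrix genes. Thbs1, which encodes the matricellular protein thrombospondin-1, stood at 112 CPM in AC8 and 263 CPM in WT members, 0.43-fold (0.34 to 0.53), with UMIs in 54 AC8 and 116 WT cells. Irf1, a transcription factor of interferon and NF-kB signalling, stood at 45.9 CPM in AC8 and 108 CPM in WT members, 0.42-fold (0.30 to 0.59). Cxcl1, a neutrophil-attracting chemokine, stood at 362 CPM in AC8 and 737 CPM in WT members, 0.49-fold (0.44 to 0.55), with UMIs in 129 AC8 and 200 WT cells. Ptgs2, the inducible cyclooxygenase, stood at 81.3 CPM in AC8 and 168 CPM in WT members. Ogn, a small leucine-rich proteoglycan, stood at 518 CPM in AC8 and 1006 CPM in WT members, and Nid1, a basement membrane linker, at 611 CPM in AC8 and 1152 CPM in WT members. Gstm1, a glutathione transferase, stood at 575 CPM in AC8 and 1070 CPM in WT members. Ier5, Abca6, Igfbp5, Jmjd1c and Spag9 had log2 ratios of -0.99, -0.95, -0.89, -0.88 and -0.87.

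**Figure D3:**
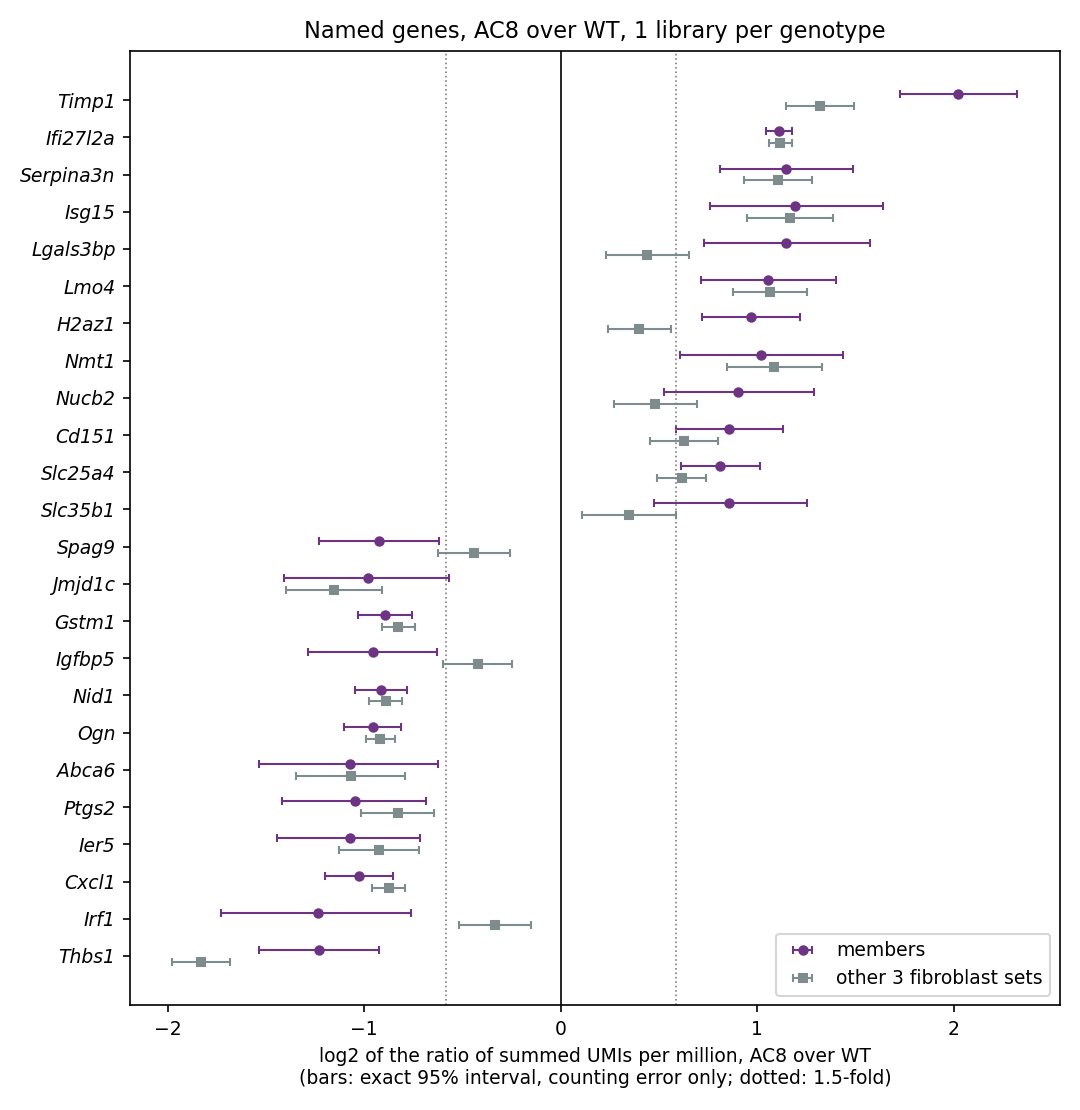
Log2 of the fold, AC8 over WT (x axis), for the 24 named genes in members (circles) and in the other 3 fibroblast sets summed (squares), with exact 95% intervals of counting error and dotted lines at 1.5-fold. For Ifi27l2a, Serpina3n, Isg15, Lmo4, Nmt1, Ogn, Nid1 and Gstm1 the points of both cell groups nearly coincide, whereas the intervals of Timp1, Lgals3bp, H2az1, Irf1, Igfbp5 and Thbs1 do not overlap between them. For 2 of these, 1 AC8 member held a large part of the UMIs: 107 of 455 for Timp1 and 162 of 385 for H2az1. The intervals do not cover such spread between cells.

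Some of these ratios were close to those of the other fibroblasts, which come from the same libraries, and others were not. In the other sets summed, 153 of 10187 measured genes (1.5%) were at least 1.5-fold higher and 426 (4.18%) lower. These sums hold more UMIs than the members, so the shares are not at like depth. Taken singly, the Cxcl14 set had 211 higher and 533 lower of 8140 measured genes. The Ccl19 set had 350 and 625 of 7151, and the Cilp set 327 and 823 of 7427. The log2 ratio of Ifi27l2a was 1.11 in members and 1.11 in the other sets, that of Serpina3n 1.06 in members and 1.05 in the other sets, that of Isg15 1.06 in members and 1.07 in the other sets, and that of Nid1 -0.90 in members and -0.88 in the other sets. Further from 0 in members than in the other sets summed were Timp1, with 1.92 in members and 1.25 in the other sets, Lgals3bp, with 1.03 in members and 0.41 in the other sets, Nucb2, with 0.82 in members and 0.44 in the other sets, and Igfbp5, with -0.89 in members and -0.40 in the other sets. Single sets came closer to members: the Cxcl14, Ccl19 and Cilp sets had 0.98, 1.68 and 0.62 for Timp1. For Igfbp5 they had -0.54, -0.33 and -0.80. The Timp1 ratio in members rested in part on few cells, as 5 held 248 of the 455 AC8 UMIs. Without the 5 top members of each library, Timp1 stood at 183 CPM in AC8 and 84.0 CPM in WT members. All cells of the other sets had 303 CPM in AC8 and 122 CPM in WT, and the Ccl19 set alone had 418 CPM in AC8 and 123 CPM in WT. Thbs1 had -1.16 in members and -1.76 in the other sets. Of 7782 genes measured in both, 824 were past 1.5-fold in members, and 2 of these (Anxa8 and Arc) were past it the other way in the other sets. The genes with the highest and lowest ratios were chosen in members, which favours values further from 0 there. With 1 library per genotype the difference between cell groups could not be tested.

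The genes whose ratio departed most from that of the other fibroblasts were named, 5 on each side as set by the rule for naming. Macrophage markers were near equal in AC8 and WT members but differed in the other sets, where they summed to between 423 and 642 CPM in AC8 and between 113 and 196 CPM in WT, and their part in these departures was not tested. The make-up of the summed sets differed too: the Cxcl14 set was 26.4% of gated AC8 and 36.4% of gated WT fibroblasts. Its part in the summed ratios was not tested. Postn stood at 226 CPM in AC8 and 195 CPM in WT members, a log2 ratio of 0.20, and at 441 CPM in AC8 and 191 CPM in WT cells of the other sets, a log2 ratio of 1.16. Taken singly, the Cxcl14, Ccl19 and Cilp sets had Postn log2 ratios of 1.81, 0.11 and 1.08, so the Ccl19 set was close to members. Igf1, a growth factor made by fibroblasts, stood at 139 CPM in AC8 and 216 CPM in WT members, and at 374 CPM in AC8 and 363 CPM in WT cells of the other sets. Its log2 ratio was -0.61 in members and -0.16, 0.18 and -0.34 in the Cxcl14, Ccl19 and Cilp sets. Irf1 had a log2 ratio of -1.08 in members and -0.31 in the other sets. Ly6a, the gene of Sca-1, stood at 2673 CPM in AC8 and 1807 CPM in WT members, and at 1295 CPM in AC8 and 558 CPM in WT cells of the other sets, so it was 2.07-fold (1.97 to 2.16) higher in members within the AC8 library and 3.24-fold (3.04 to 3.45) within the WT library. Aldh1a2, which makes retinoic acid, had log2 ratios of -0.27 in members and 0.87 in the other sets. In the opposite sense, Ccl2, a monocyte-attracting chemokine, stood at 217 CPM in AC8 and 131 CPM in WT members, and at 174 CPM in AC8 and 253 CPM in WT cells of the other sets, but in members it had UMIs in 21 AC8 and 23 WT cells, and 5 cells held 162 of the 246 AC8 UMIs and 125 of the 158 WT UMIs. Arc, an immediate-early gene, had the widest gap on this side, with log2 ratios of 0.67 in members, from 44 UMIs in AC8 and 25 in WT, and -0.59 in the other sets; in members it was -0.15 with cells thinned to 1000 UMIs. Svep1, Adm and Cdv3 were the other named genes there, with log2 ratios in members of 0.71, 0.86 and 0.07, and that of Adm was -0.028 without members holding another cell type's UMIs.

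**Figure D4:**
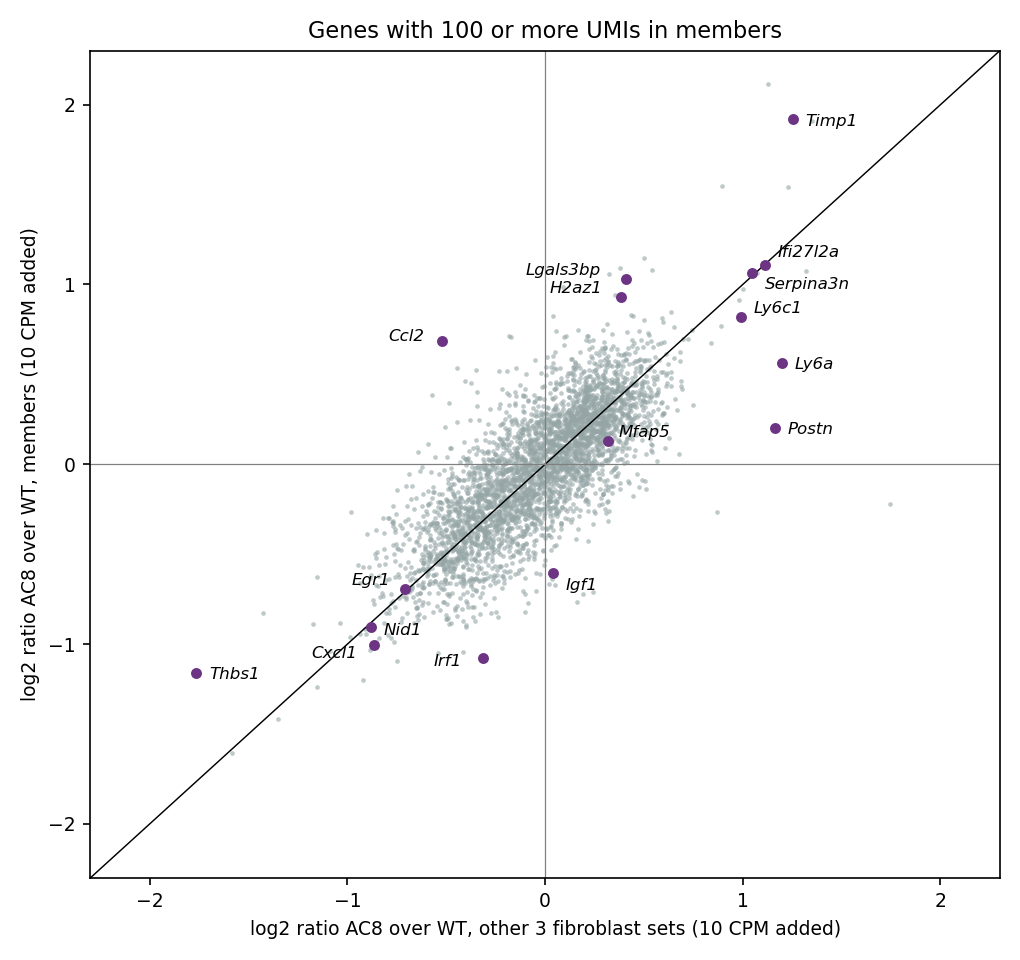
Log2 ratio AC8 over WT in the other 3 fibroblast sets (x axis) and in members (y axis) for genes with at least 100 UMIs in members, 10 CPM added to each level, with 16 genes labelled and the line of equal ratios drawn. Ifi27l2a, Serpina3n, Nid1 and Egr1 lie on the line, Ccl2 lies in the upper left, and Postn and Ly6a lie below the line on the right.

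Among type I interferon response genes, 34 of 43 were measured in members, and 7 were at least 1.5-fold higher and 1 lower in AC8, with a median log2 ratio of 0.18. Length centring left the counts at 7 and 1. Ifit3, of the IFIT family of antiviral proteins, stood at 52.1 CPM in AC8 and 15.8 CPM in WT members, with UMIs in 33 AC8 and 17 WT cells. Irf7, a transcription factor that amplifies the interferon response, stood at 55.6 CPM in AC8 and 19.1 CPM in WT members, with UMIs in 48 AC8 and 20 WT cells. Ifit1 stood at 27.4 CPM in AC8 and 7.48 CPM in WT members, and Ifit3b, a near-identical copy of Ifit3 whose reads may be split with it, at 22.1 CPM in AC8 and 4.16 CPM in WT members. Ddx58, the RNA sensor RIG-I, ran the other way with 20.3 CPM in AC8 and 41.6 CPM in WT members. Bst2, an interferon-induced membrane protein, stood at 214 CPM in AC8 and 143 CPM in WT members, short of 1.5-fold. In the other sets 7 of 40 measured genes of the list were higher and 0 lower.

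Of 17 measured genes of MHC class I presentation, 2 were at least 1.5-fold higher and 0 lower, and with length centring 1 was higher. The 2 were the immunoproteasome subunits Psmb10, at 78.6 CPM in AC8 and 44.9 CPM in WT members, and Psmb9, at 33.6 CPM in AC8 and 16.6 CPM in WT members. A single AC8 cell held 12 of the 38 AC8 UMIs of Psmb9. Without members holding 2 or more UMIs of another cell type's list, 0 of 16 measured genes were higher. Over all measured genes 3.07% were higher. B2m, the light chain of class I molecules, stood at 546 CPM in AC8 and 462 CPM in WT members, and H2-D1 at 563 CPM in AC8 and 570 CPM in WT members.

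The promoters of 3 of these genes are printed to show the letters that interferon and NF-kB factors are known to bind. Sequences are from RefSeq (GRCm38.p6), 250 bases before to 50 after the start, and capitals mark matches on either strand. The interferon-stimulated response element was searched as GAAA, any 2 bases and GAAA, and the kappaB site as GGG, any 2 bases and TTTCC, overlapping matches included. Isg15 (chr4:156200769-156201068, minus strand) held 3 overlapping element matches, Ifit3 (chr19:34583279-34583578, plus strand) held 2, and Cxcl1 (chr5:90890995-90891294, plus strand) held 2 kappaB matches.
Isg15: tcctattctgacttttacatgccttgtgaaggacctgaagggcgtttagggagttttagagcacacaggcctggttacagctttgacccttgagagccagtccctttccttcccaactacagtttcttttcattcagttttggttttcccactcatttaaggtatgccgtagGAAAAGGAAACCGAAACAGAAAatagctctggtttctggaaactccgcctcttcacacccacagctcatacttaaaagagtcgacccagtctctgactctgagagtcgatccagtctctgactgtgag
Ifit3: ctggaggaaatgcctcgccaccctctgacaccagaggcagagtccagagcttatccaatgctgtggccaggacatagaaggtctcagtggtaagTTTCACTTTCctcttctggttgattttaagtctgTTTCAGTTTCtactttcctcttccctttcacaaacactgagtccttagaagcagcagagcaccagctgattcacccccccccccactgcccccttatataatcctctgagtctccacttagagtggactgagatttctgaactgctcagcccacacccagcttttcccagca
Cxcl1: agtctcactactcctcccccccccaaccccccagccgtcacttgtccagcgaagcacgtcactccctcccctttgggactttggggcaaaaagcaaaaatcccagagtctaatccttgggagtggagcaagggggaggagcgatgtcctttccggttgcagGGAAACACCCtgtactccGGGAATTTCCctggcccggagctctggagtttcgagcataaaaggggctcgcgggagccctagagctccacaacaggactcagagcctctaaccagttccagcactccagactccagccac

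The interferon element was found in 16 of the 27 measured interferon-list genes with a promoter entry, against 3.99% of all genes with one. It was present in 4 of the 6 such genes that were at least 1.5-fold higher in AC8 members and in Ddx58, the 1 that was lower, so genes on both sides held the letters. Stat2, with a log2 ratio of -0.41 in members, held the element as well. The kappaB letters were found in 7 of the 16 measured NF-kB target genes with an entry, against 1.89% of all genes. They were present in 1 of the 4 such genes that were at least 1.5-fold lower in AC8 members. That gene was Cxcl1, while Irf1, Ptgs2 and Tnfaip2 lacked the letters. Cxcl2, the 1 that was higher, held them. A match is a description of the sequence.

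Among 23 measured NF-kB target genes, 2 were at least 1.5-fold higher (Cxcl2 and Ccl2) and 5 lower (Irf1, Cxcl1, Ptgs2, Tnfaip2 and Ccl7), with a median log2 ratio of -0.07. With length centring 1 was higher and 4 were lower. Cxcl2, a chemokine close to Cxcl1, stood at 60.9 CPM in AC8 and 23.3 CPM in WT members; without the 5 members with most of it the levels were 14.1 CPM in AC8 and 12.5 CPM in WT. Ccl7, a chemokine made beside Ccl2, stood at 106 CPM in AC8 and 169 CPM in WT members. Il6, a cytokine under NF-kB control, was close to equal at 22.1 CPM in AC8 and 22.5 CPM in WT members. In the other sets 1 of 26 genes of the list was higher and 6 were lower. Of 12 measured chemokines and cytokines, several of them NF-kB targets too, 4 were higher and 3 lower, and 3 and 3 with length centring. Without members holding 2 or more UMIs of another cell type's list, 2 were higher and 3 lower. The chemokine Ccl8 stood at 56.5 CPM in AC8 and 9.98 CPM in WT members, with UMIs in 17 AC8 and 7 WT cells. For Ccl8, 5 cells held 48 of the 64 AC8 UMIs, and without the 5 top cells it stood at 14.1 CPM in AC8 and 1.66 CPM in WT. Cxcl16 stood at 101 CPM in AC8 and 60.7 CPM in WT members. Ccl11, or eotaxin, was lower, at 23.8 CPM in AC8 and 44.9 CPM in WT members.

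Of 15 measured complement and acute-phase genes, 3 were at least 1.5-fold higher and 1 lower, or 3 and 2 with length centring. Of all measured genes 3.07% were higher and 7.52% lower. Beside Serpina3n, C4b, a component of the classical complement path, stood at 45.9 CPM in AC8 and 20.8 CPM in WT members. Hp, which encodes haptoglobin, had UMIs in 5 AC8 and 4 WT cells only, at 37.1 CPM in AC8 and 6.65 CPM in WT members. C3, the central complement protein, stood at 1226 CPM in AC8 and 1070 CPM in WT members.

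Of 10 measured cyclic AMP response genes, 7 were at least 1.5-fold lower in AC8 members and 0 higher, with a median log2 ratio of -0.65. In the other sets 6 of 12 were lower and 0 higher. Pde10a, a phosphodiesterase that degrades cyclic nucleotides, stood at 9.72 CPM in AC8 and 44.9 CPM in WT members, with UMIs in 11 AC8 and 47 WT cells. Nr4a3, a nuclear receptor induced early by cyclic AMP and other stimuli, stood at 41.5 CPM in AC8 and 81.5 CPM in WT members. Per1, a clock gene with a cyclic AMP response, stood at 59.2 CPM in AC8 and 106 CPM in WT members, and Pde4b, another phosphodiesterase, at 113 CPM in AC8 and 175 CPM in WT members. Sik1, Pde3b and Pde4d were the other lower ones, and Crem stood at 29.1 CPM in AC8 and 32.4 CPM in WT members. With length centring 4 of the 10 were lower and the median was -0.38.

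Of 30 measured genes known from tissue dissociation and heat shock, 3 were at least 1.5-fold lower (Ier5, Egr1 and Fosb) and 0 higher, a share of lower genes near that of all measured genes, and with length centring 4 were lower. A ratio below 0 was found for 24 of the 30, against 4346 of all 7789 measured genes, and the list's median log2 ratio was -0.31. Egr1, an immediate-early transcription factor, stood at 2355 CPM in AC8 and 3821 CPM in WT members, and Fos at 5585 CPM in AC8 and 7754 CPM in WT members. Of the 6 genes with a ratio above 0, Ier2 stood at 2741 CPM in AC8 and 2103 CPM in WT members. These genes took a median of 4.61% of a member's UMIs in AC8 and 5.63% in WT. Their part in the lower levels of Cxcl1, Ptgs2, Nr4a3 and other early-response genes was not tested.

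Matrix genes were mostly near equal. Of 16 measured collagen chains beyond the genes of the gate, 0 were at least 1.5-fold higher and 1 lower, Col15a1, a collagen of basement membrane zones, at 606 CPM in AC8 and 1002 CPM in WT members. Col1a2 stood at 1291 CPM in AC8 and 1312 CPM in WT members. The median log2 ratio of the chains was -0.18, and 0.01 with length centring. Of 11 basement membrane genes 2 were lower, Nid1 and Lamb1, and of 18 elastic fibre and microfibril genes 2 were lower, Fbn1 and Loxl2. With length centring 1 gene of each of these lists was lower. Mfap5 stood at 2501 CPM in AC8 and 2285 CPM in WT members. Of 22 matrix proteases and inhibitors Timp1 was higher and Adamts1, Adamts5, Adamts12 and Timp3 were lower, and with length centring 1 was higher and 1 lower; Timp3, an inhibitor bound to the matrix, stood at 676 CPM in AC8 and 1112 CPM in WT members.

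Of 20 measured fibroblast activation genes, 3 were at least 1.5-fold higher and Thbs1 was lower. Beside Timp1 these were Acta2 and Tagln, genes of the contractile apparatus. Acta2 had UMIs in 28 AC8 and 20 WT members, and 1 AC8 cell held 122 of the 185 AC8 UMIs; without the 5 top cells it stood at 25.6 CPM in AC8 and 23.3 CPM in WT. Mural cells, which the gate could let through, carry both genes: members' Acta2 was 1.23% of the mural level in AC8 and 0.999% in WT. Cthrc1, a marker of activated fibroblasts, had 24 UMIs in AC8 and 0 in WT members, which is under the 30 UMIs needed to count as measured. Ccn2, a matricellular protein that TGF-beta induces, stood at 830 CPM in AC8 and 602 CPM in WT members. In the other sets 5 of 25 genes of the list were higher and 1 lower, Postn among the higher.

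Signalling genes of the TGF-beta and BMP list were lower or near equal: of 23 measured, 6 were at least 1.5-fold lower and 0 higher, with a median log2 ratio of -0.31. Over all measured genes 7.52% were lower and 3.07% higher. Id1, a target of BMP signalling, stood at 21.2 CPM in AC8 and 52.4 CPM in WT members, Bmpr2, a BMP receptor, at 65.4 CPM in AC8 and 122 CPM in WT members, and Tgfbr1, a TGF-beta receptor, at 38.0 CPM in AC8 and 67.3 CPM in WT members. With length centring 3 were lower and 1 higher, against 293 lower and 273 higher of all 7702 genes so centred. Of 15 growth factor and IGF-binding genes 3 were lower (Igf1, Igfbp5 and Angpt1) and 0 higher, and 2 were lower with length centring. Igfbp5 stood at 103 CPM in AC8 and 200.4 CPM in WT members. Of 13 Wnt genes, Dkk3, a secreted protein of the Dickkopf family, was higher at 75.1 CPM in AC8 and 40.7 CPM in WT members, and Wnt5a was lower at 8.83 CPM in AC8 and 19.95 CPM in WT members; with length centring 1 was higher and 0 lower. Of 10 parenchymal fibroblast genes 3 were lower and 0 higher, with a median log2 ratio of -0.33. Length centring left 3 lower, with a median of -0.38, and in the other sets 5 of 10 were lower. The proteoglycans (0 higher and 1 lower of 12), the adipogenic genes (0 and 1 of 7) and the cell cycle genes (1 and 0 of 4) had 1 call each.

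**Figure D5:**
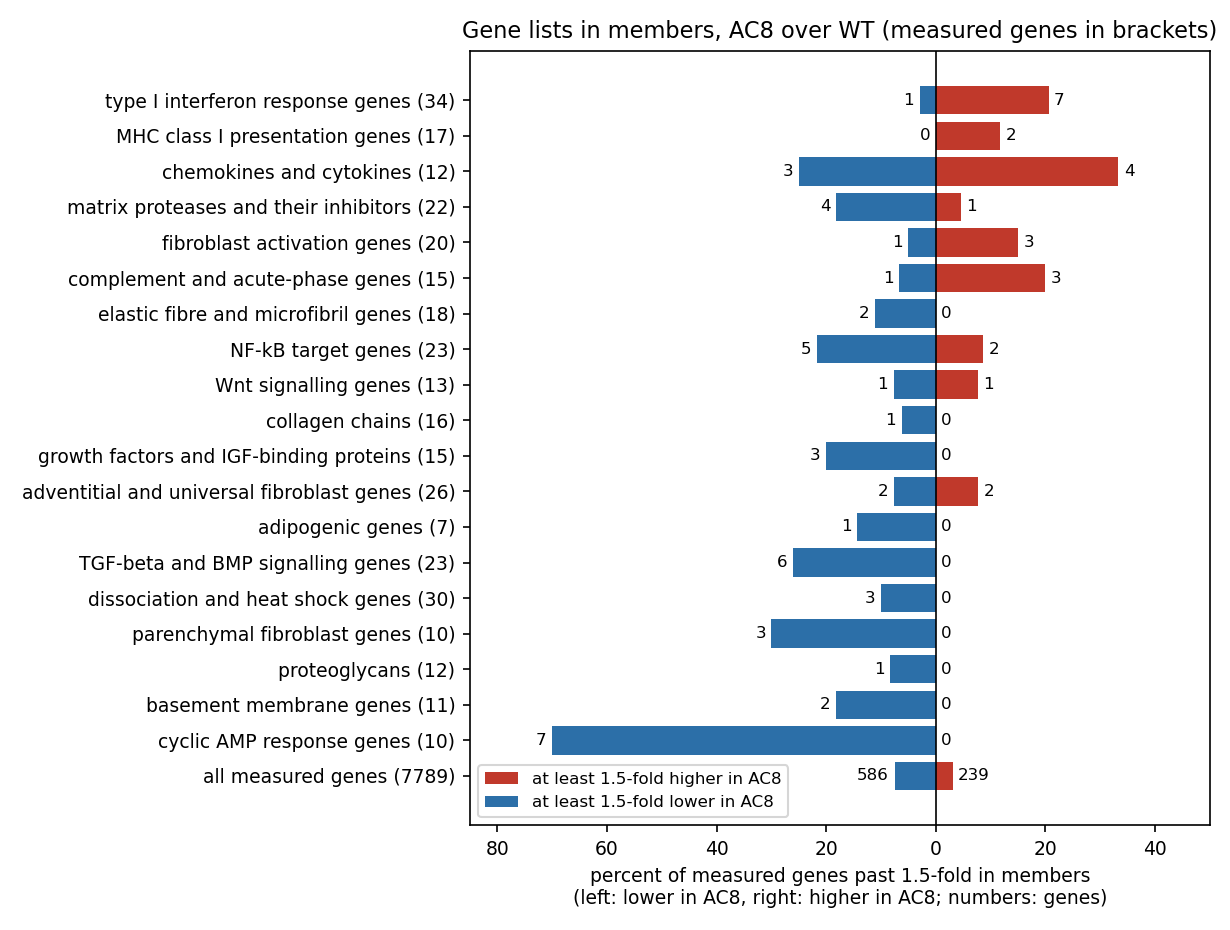
Percent of each list's measured genes (in brackets) that were at least 1.5-fold higher (red, right) or lower (blue, left) in AC8 than in WT members, with the number of genes at each bar; all measured genes stand at the bottom. The cyclic AMP list had 7 of 10 genes lower, and the interferon list had 7 of 34 higher, against 239 and 586 of 7789 measured genes higher and lower.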

How the data were processed

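Per the labels' protocols, heart cells were sorted, pooled and run on the 10x Genomics platform, and per the submitters' processing notes reads were aligned to mm10 with Cell Ranger. The deposited matrices hold raw UMI counts per gene and cell, not normalized by the authors, for 22441 gene symbols in 1 library per genotype. No PCR duplicates enter UMI counts, and intervals and floors (3 counts) cover counting error only. The members and the gene lists were chosen with earlier results of these data known. Counts were summed over members per library and scaled to CPM; ratios used 10 CPM added, and called means past 1.5-fold. No test was run, since there is 1 library per genotype. Named genes reached 100 CPM in 1 library and there at least 20% of the highest level in another cell class: the 12 highest and 12 lowest ratios, 12 highest and 8 lowest over other fibroblasts, and 5 on each side by difference, leaving out rule, mitochondrial, ribosomal protein and sex-linked marker genes. From each list the genes with the largest ratios were named, with some near equal ones chosen after their values were seen; some genes are not reported here. Exonic lengths and positions came from GENCODE vM21 (GRCm38), matching 98.2% of symbols. Doublets were scored against simulated pairs and kept in the main result; leaving out 111 cells per library removed 7 AC8 and 9 WT members. Tools were scipy 1.17.1, scikit-learn 1.9.0, pandas 2.3.3 and numpy 2.4.6 in Python 3.11.15, and the calculations were tested on simulated data.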

Additional observations from a re-analysis of the deposited data

Results flagged for a closer look

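Anxa8 and Arc were past 1.5-fold in opposite directions in members and in the other 3 fibroblast sets; the difference between the cell groups was not tested. Anxa8, an annexin, had 29 UMIs in AC8 and 14 in WT members, a log2 ratio of 0.72, and 6 UMIs in AC8 and 25 in WT cells of the other sets, a log2 ratio of -0.59. Arc, an immediate-early gene, had 44 UMIs in AC8 and 25 in WT members, a log2 ratio of 0.67, and 229 UMIs in AC8 and 351 in WT cells of the other sets, a log2 ratio of -0.59. In members Arc lay in 19 AC8 and 16 WT cells, and its ratio turned to -0.15 when each cell was thinned to 1000 UMIs.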

How the results depend on the processing

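No paired analysis was possible because each genotype has 1 library; for the same reason no replicate could be left out. Of the counts and shares, 76 of 88 recomputed values stayed within 1.5 times the main count or within the main interval. Leaving out members with 2 or more UMIs of another cell type's list made the shares 18.1% in AC8 and 19.2% in WT, and asking for a score at least 2 times the next set (added after seeing the data) made them 14.3% in AC8 and 13.5% in WT and gave 246 genes lower in members than in other fibroblasts. A minimum of 100 UMIs gave 103 genes higher and 250 lower in AC8. A pseudocount of 1 CPM gave 500 higher and 1072 lower, and 245 higher and 446 lower over other fibroblasts. Centring within length quartiles (also added later) gave 293 lower and turned the medians of the collagen chains to 0.0076, the elastic fibre list to 0.085 and the cell cycle list to 0.00075. Thinning to 1000 UMIs turned the medians of the MHC class I list to -0.0093, the chemokines and cytokines to -0.31, the complement and acute-phase list to -0.11, the elastic fibre list to 0.040, the Wnt list to 0.21 and the adipogenic list to 0.37, and the Arc ratio to -0.15. The Wnt median was 0.014 with a minimum of 100 UMIs. The Adm ratio was -0.028 without members holding another list's UMIs. The Ccl11 ratio was 0.18 with Pi16 left out of the set and 0.075 with the stricter score, and the Dkk3 ratio was -0.026 with Pi16 left out. The causes were not tested. Genes under about 100 UMIs in members are limited by depth.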

Other observations

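MHC class II genes (H2-Aa, H2-Ab1, H2-Eb1 and Cd74) summed to 926 CPM in AC8 and 262 CPM in WT members, and a similar share of members had a UMI of them, 23.2% in AC8 and 24.3% in WT. In the AC8 library 3 cells with at least 10 such UMIs held 936 of the 1049, 753 of them in 1 cell, and in the WT library 4 cells held 189 of 315. Rgs5, a pericyte gene, had 5 UMIs in AC8 and 66 in WT members, with 59 of them in 1 WT cell.

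Among the genes that varied most between members in both libraries were Hspb1, Mgp, Lars2, Apoe, Ccn2 and Cebpd. Apoe had UMIs in 195 AC8 and 218 WT members, and Ccn2 in 157 AC8 and 164 WT members. Ifi27l2a was among them as well, with 91 UMIs in the highest AC8 cell and 46 in the highest WT cell.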
